A study of Mus musculus with 4 samples.

Results

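The Cdx genes Cdx1, Cdx2 and Cdx4 encode the caudal-type homeodomain proteins, and 1 window of the mouse genome was examined around each for peaks of Flag-tagged Sp5. A peak belonged to a gene's window when its midpoint fell between chr18:61128000-61247000 for Cdx1 (119 kb), chr5:148062000-148170000 for Cdx2 (108 kb) or chrX:100465000-100575000 for Cdx4 (110 kb), all on mm9. The 3 windows held 2 of the 9428 peaks of the deposited list, both in the Cdx1 window. The windows of Cdx2 and Cdx4 held 0 peaks each.

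Caudal-type proteins bind DNA through a homeodomain and act in the posterior part of the embryo, where they set the expression of Hox genes and keep the body axis growing from the tail end. Their genes are known to respond to Wnt signalling in the primitive streak and tail bud. Cdx2 is also known for its role in the trophectoderm, the outer layer of the early embryo, and in the intestinal epithelium, where Cdx1 is expressed as well. Sp5 is a zinc-finger factor of the SP/KLF family, whose members bind GC-rich and GT-rich boxes. Its gene is itself switched on by Wnt signalling, so Sp5 and the Cdx genes are known as targets of the same pathway.

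The peaks came from A2Lox.cre mouse embryonic stem cells, a line in which a chosen coding sequence can be placed under the control of doxycycline. The cells formed embryoid bodies, received doxycycline from day 2 for 24 h to switch on Flag-Sp5, and were fixed on day 3. Of the 4 libraries, 2 were chromatin immunoprecipitated with the M2 antibody against Flag (4 µg each) and 2 were input without antibody. All 4 carry the same doxycycline label. The titles name Flag-Sp5 for the immunoprecipitated libraries but Flag ESC, without Sp5, for the input. Whether the input came from the same Flag-Sp5 cells cannot be told from these titles. Immunoprecipitates from cells without Flag-Sp5 were not analysed here, so background of the antibody and binding cannot be told apart. Endogenous Sp5 was not assayed. The tagged protein came from an induced transgene in 1 engineered line, and the labels name neither clones nor separate cultures.

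The list gives a chromosome, a start and an end for each peak, with no height, score or value of a single library. The depth is unknown, no value below has a replicate error, and no test of a difference between the loci was possible. A stretch without a listed peak is a stretch for which the authors' processing left nothing in the list, which is not a measurement of 0 binding. At which step of the processing a peak was not called or was left out cannot be told.

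The sequence just before the start of a gene is the place where SP/KLF factors are best known to bind. It is shown for Cdx2 and Cdx4, the 2 genes found in the RefSeq promoter table. Cdx1, the gene whose window held peaks, was not in that table, so its promoter could not be set beside theirs. The 250 bases before the annotated start are given 5′ to 3′ on the strand of the gene. Capitals mark the matches described after them. The sequences are from GRCm38.p6, at chr5:147307250-147307499 on the minus strand for Cdx2 and chrX:103321148-103321397 on the plus strand for Cdx4, and these positions cannot be set beside the mm9 peak positions.
Cdx2: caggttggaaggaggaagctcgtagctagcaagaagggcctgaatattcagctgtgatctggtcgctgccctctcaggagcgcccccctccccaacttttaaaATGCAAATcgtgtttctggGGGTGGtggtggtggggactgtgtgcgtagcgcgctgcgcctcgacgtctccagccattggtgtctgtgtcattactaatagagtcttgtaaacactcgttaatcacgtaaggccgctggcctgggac
Cdx4: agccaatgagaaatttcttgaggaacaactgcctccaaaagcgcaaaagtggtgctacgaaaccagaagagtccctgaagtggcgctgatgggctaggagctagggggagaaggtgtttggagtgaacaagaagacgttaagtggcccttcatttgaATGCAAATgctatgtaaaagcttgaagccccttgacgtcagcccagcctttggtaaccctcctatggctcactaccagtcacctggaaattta

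Neither promoter held any of the full SP/KLF boxes or TCF/LEF sites searched, each taken as exact letters. Other forms of these sites were not searched. Both strands were searched. The GC box GGGCGG was found in 0 of these 2 promoters and in 32.7% of the 32851 promoters of the table. The GT boxes GGGTGTGG and GGGTGGGG, present in 3.20% and 9.05% of promoters, had no match in either. The same was true of CTTTGAT and CTTTGTT, letters recognised by the TCF/LEF factors of the Wnt pathway, which 3.21% and 5.03% of promoters held. The first 6 letters of a GT box, GGGTGG, which the longer GGGTGGGG contains, occurred once before Cdx2, starting 128 bases before the gene start, and not before Cdx4. That shorter motif was searched after the sequence had been seen and was present in 28.1% of promoters. The Cdx2 promoter had 55.2% G and C and 13 CpG dinucleotides, and the Cdx4 promoter had 48.4% and 5, beside medians of 52.4% and 6 over the table. A missing match says only that these letters are not in this stretch, and the match is not a measured site.

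The Cdx1 window was the only one of the 3 with Flag-Sp5 peaks. The first lay at chr18:61173475-61173663 and was 189 bp wide. The second lay at chr18:61194599-61194798 and was 200 bp wide. Their midpoints stood at -13.9 kb (before) and 7.20 kb (after) from the window centre, and were 45.6 and 52.3 kb from the nearer window end, so neither owed its place in the count to the exact border. In the gene order of GRCm38.p6, Cdx1 has the protein-coding genes Slc6a7, a member of the solute carrier family 6 of transporters, and the gene model Gm52351 as its neighbours. Whether either peak lies in an exon, an intron or a promoter, and in which gene, was not analysed here, as no mm9 annotation was used.

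**Figure D1:**
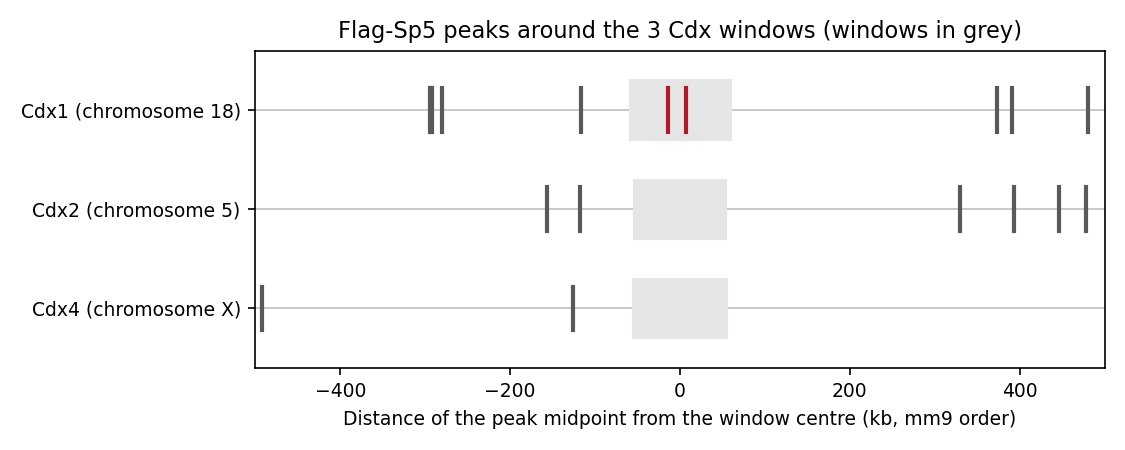
Midpoints of Flag-Sp5 peaks (vertical strokes) within 500 kb of the centre of each Cdx window, drawn as distance in kb, with 1 row per gene and the windows in grey. The 2 peaks of the Cdx1 window are in red, and the grey boxes of Cdx2 and Cdx4 hold no stroke.

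Outside the windows, the first peak on the lower-coordinate side was at a similar distance at all 3 genes. It lay 56.6 kb before the Cdx1 window at chr18:61071304-61071529 (226 bp wide). Before the Cdx2 window it was 63.5 kb away, at chr5:147998440-147998582 (143 bp wide). Before the Cdx4 window it was 71.5 kb away, at chrX:100393369-100393587 (219 bp wide). On the other side the distances were longer and less alike. The next peak came 313.1 kb after the Cdx1 window at chr18:61560012-61560174 (163 bp wide), 275.9 kb after the Cdx2 window at chr5:148445734-148445977 (244 bp wide) and 1277.4 kb after the Cdx4 window at chrX:101852354-101852499 (146 bp wide). All 3 windows thus lay nearer to the peak before them than to the peak after them, as the map of peaks around the windows shows.

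The count at Cdx1 was above the mean density of its chromosome, and both other counts were below theirs, but the counting intervals were wide. Each density gives less than a whole peak per window. A window with any peak thus had to lie above it, and an empty window below it. At the density of chromosome 18, 3.27 peaks per Mb of span, a window of this size would hold 0.389 peaks, and 2 were listed (exact 95% Poisson interval 0.242 to 7.22). Chromosome 5 carried 4.95 peaks per Mb, which gives 0.535 for the Cdx2 window, where 0 were listed (upper limit 3.69). The X chromosome carried 1.01 per Mb, which gives 0.112 for the Cdx4 window, again with 0 listed (upper limit 3.69). The 3 intervals overlapped one another, and they cover the counting error of peaks only. Per 100 kb the counts were 1.68 (0.203 to 6.07) at Cdx1, 0 (up to 3.42) at Cdx2 and 0 (up to 3.35) at Cdx4. The 3 windows together held 2 peaks in 337 kb, where the densities of their chromosomes give 1.03.

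Windows of the same size were then laid end to end along each chromosome, from its first to its last peak, as a background for these counts. They were laid without regard to genes, and windows around other genes were not compared. On chromosome 18, 53 of 717 windows of 119 kb held 2 or more peaks, which is 7.39%, and 46 of them held exactly 2, as the Cdx1 window did. The window with most peaks on that chromosome held 6. Over all chromosomes the share of windows with 2 or more was 9.25%, from 1.63% on X to 16.1% on chromosome 11. The Cdx1 window was thus above most windows of its size, and 53 windows laid on its own chromosome held as many or more. The Cdx1 region was not left out of these windows, so its own peaks can be among those counted.

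An empty window was the common case. On chromosome 5, 923 of 1378 windows of 108 kb held 0 peaks, which is 67.0%, so the Cdx2 window was like most windows of its chromosome. On X, 1324 of 1462 windows of 110 kb held 0 peaks, which is 90.6%, and the Cdx4 window was among them. Over all chromosomes these shares were 73.1% for the size of the Cdx2 window and 72.9% for that of the Cdx4 window. The absence of a listed peak at either gene hence did not set its window apart from this background, which is not one of windows around genes. Among the 20 chromosomes, X had the highest share of empty windows at both sizes, and chromosome 11 the lowest, 61.3% for 108 kb and 60.3% for 110 kb.

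**Figure D2:**
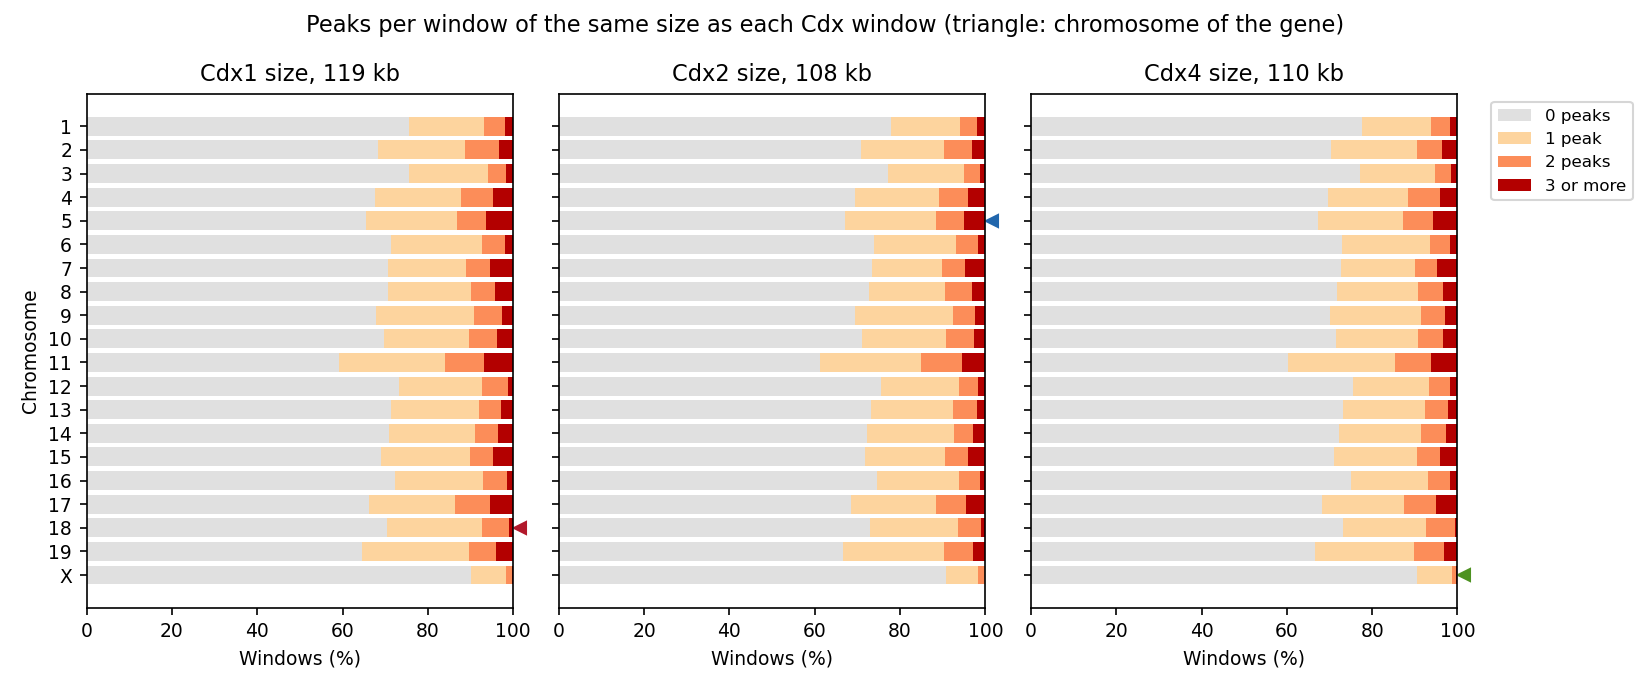
Share of windows (x axis, %) that hold 0, 1, 2 or at least 3 Flag-Sp5 peaks on each of 20 chromosomes (y axis), for windows the size of the Cdx1, Cdx2 and Cdx4 windows, with a triangle at the chromosome of the gene. Windows with 2 or more peaks make up 7.39% on chromosome 18, and empty windows make up 67.0% on chromosome 5 and 90.6% on X.

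The 2 peaks of the Cdx1 window stood 21.1 kb apart from midpoint to midpoint, and no other peak was close. The first was 102.2 kb from the peak before it and the second 365.4 kb from the peak after it. On chromosome 18 a neighbour within 21.1 kb was found for 66 of 279 peaks (23.7%, 95% Wilson interval 19.1 to 29.0%), and over the list for 3217 of 9428 (34.1%, interval 33.2 to 35.1%). The median distance to the nearest neighbour was 81.3 kb on chromosome 18 and 46.9 kb over the list, so the Cdx1 peaks were closer to each other than the median peak. Among the 46 windows of chromosome 18 with exactly 2 peaks, the median separation was 25.3 kb, and 21 of them (45.7%) had peaks as close as those at Cdx1. The Cdx1 region was not left out of these windows either. Spacing inside a window is bounded by its size.

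The Cdx1 window centre lay 7.20 kb from a peak midpoint, and only 4.41% of the span of chromosome 18 lay nearer than that to one. For Cdx2 the nearest midpoint was 117.5 kb from the window centre, and 48.3% of the span of chromosome 5 lay as far or farther. For Cdx4 it was 126.5 kb, and 80.6% of the span of X lay as far or farther. The distance from the Cdx2 window centre to a peak was thus near the middle of the distances found along chromosome 5. The Cdx4 window centre was closer to a peak than most of X. Over all chromosomes together, 54.1% of the span lay at least as far from a peak as Cdx2 and 52.1% at least as far as Cdx4, and the share nearer to a peak than Cdx1 was 4.73%. These shares describe single positions, the window centres, whose distance from the gene starts on mm9 was not analysed here.

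The peak-free stretches that span the other two genes were long but not extreme on their chromosomes. Around Cdx2 the distance between neighbouring midpoints was 447.3 kb, the 83rd longest of 736 on chromosome 5, where the median was 78.7 kb. Stretches at least that long made up 55.9% of the chromosome's span. Around Cdx4 it was 1458.9 kb, the 33rd longest of 162 on X, where the median was 470.6 kb, and stretches at least that long made up 64.4% of the span. Most of each span therefore lay in stretches as free of peaks as those around the genes. The neighbours of Cdx2 in the gene order of GRCm38.p6 are Pdx1, a homeobox gene of the ParaHox cluster that acts in the pancreas, and Urad. Those of Cdx4 are Nap1l2 and Chic1.

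Which locus had the most peaks relative to its chromosome changed with the distance. Within 100 kb and 500 kb of the window centre it was Cdx1, as it was within 1000 kb, while within 250 and 2500 kb it was Cdx4. The order within 250 kb rested on 1 peak at Cdx4 (95% Poisson interval 0.0253 to 5.57), beside 3 at Cdx1 (interval 0.619 to 8.77). Such a change of order is no measured difference between the loci. Within 500 kb of the Cdx1 window centre there were 9 peaks (95% Poisson interval 4.11 to 17.1), where the density of chromosome 18 gives 3.27, a ratio of 2.75. Of 85 windows of that size on chromosome 18, 4 (4.71%) held as many or more, with the Cdx1 region not left out. Within 500 kb of the Cdx2 window centre there were 6 peaks (interval 2.20 to 13.1) against 4.95 at the density of chromosome 5, and 33.1% of windows held as many or more. At Cdx4 there were 2 (interval 0.242 to 7.22) against 1.01 at the density of X, and 25.6% of windows held as many or more. Of the 3 intervals at this distance, that of Cdx1 was the one that left out the mean density of its chromosome. It was also the only interval to do so over the 5 distances tried. Of these 9 peaks, 2 lay in the Cdx1 window and 3 within 250 kb of its centre. The intervals treat peaks as independent of one another, which peaks are not, so they are a description and no test of enrichment.

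Within 100 kb there were 2 peaks at Cdx1, 3.06 times the number at the density of its chromosome, and 0 at both Cdx2 and Cdx4. Within 250 kb the counts were 3 at Cdx1, 2 at Cdx2 and 1 at Cdx4, with ratios to the chromosome density of 1.83, 0.808 and 1.97. Within 1000 kb they were 11, 11 and 2, with ratios of 1.68, 1.11 and 0.987. At these 3 distances all intervals included the mean density of the chromosome. Within 2500 kb the ratios were 1.28 at Cdx1, 1.13 at Cdx2 and 1.78 at Cdx4, and all intervals again included the mean density. The counts were 21 at Cdx1 (interval 13.0 to 32.1, against 16.3), 28 at Cdx2 (interval 18.6 to 40.5, against 24.7) and 9 at Cdx4 (interval 4.11 to 17.1, against 5.07). As many or more were held by 29.4% of windows of this size at Cdx1, 34.5% at Cdx2 and 18.8% at Cdx4. The 5 distances tried are nested and share peaks, so their values are not separate observations.

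**Figure D3:**
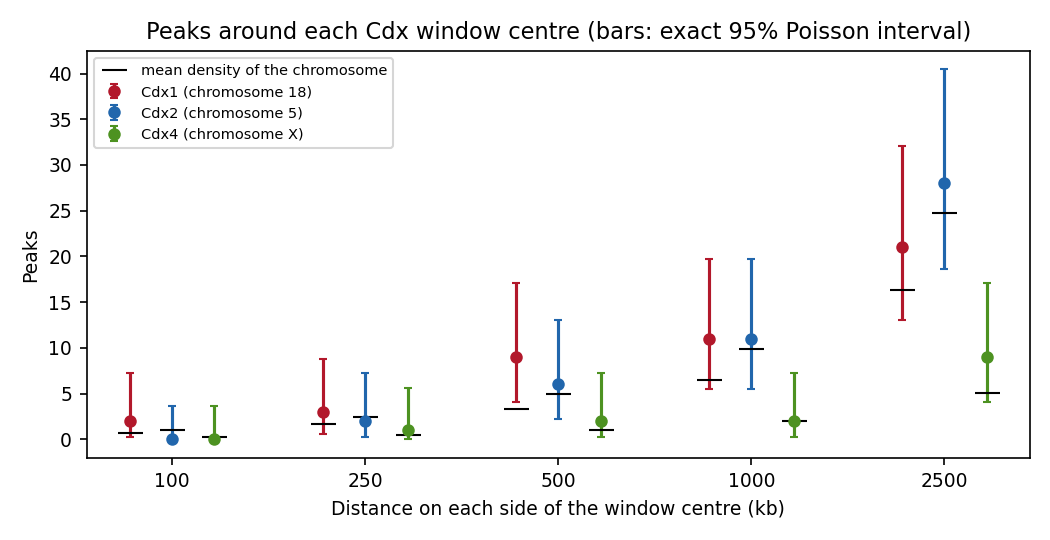
Number of Flag-Sp5 peaks (y axis) within 5 distances of each Cdx window centre (x axis, kb on each side), with exact 95% Poisson intervals as bars and the number at the mean density of the chromosome as black dashes. At 500 kb the Cdx1 point (9 peaks) lies above its dash with an interval that leaves it out, while the intervals of Cdx2 (6) and Cdx4 (2) include theirs. The intervals treat peaks as independent, which they are not, and are a description only.

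Both Cdx1 peaks had ordinary widths. At 189 and 200 bp they lay on either side of the median of 195 bp, which the list and chromosome 18 share, and 45.9% and 52.7% of all peaks were narrower than them. Neither had the smallest width of the list, 141 bp, exceeded 300 bp or had a neighbour within 1 kb. Of the 6 peaks next to the windows, those after Cdx1, before Cdx2 and after Cdx4 were narrower than the median (163, 143 and 146 bp), and those before Cdx1, after Cdx2 and before Cdx4 were wider (226, 244 and 219 bp). Width is that of the listed interval and gives no measure of the strength of binding.

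**Figure D4:**
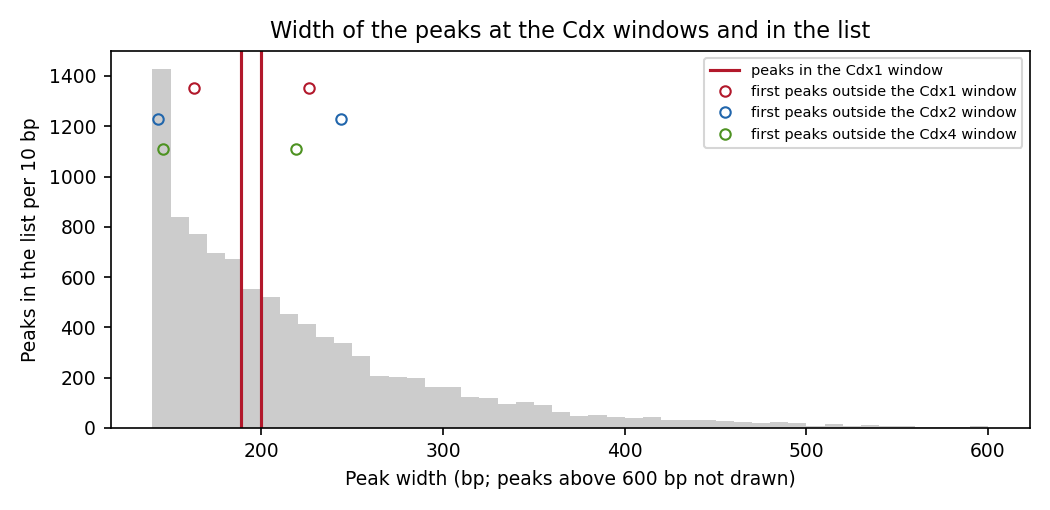
Distribution of peak width in the list (grey, peaks per 10 bp, x axis in bp up to 600 bp), with the 2 peaks of the Cdx1 window as red lines and the first peaks outside each window as circles, whose height has no meaning. The red lines at 189 and 200 bp stand on either side of the list's median of 195 bp.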

How the data were processed

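ChIP-seq was made from 2 Flag-Sp5 and 2 input libraries, and the authors deposited 1 list of peaks that holds positions only (chromosome, start and end), in mm9 per the submitters' processing notes, which name Bowtie, Picard, MACS2 and HOMER without versions or order. The threshold and the pooling of libraries are not stated there. Members and motif lists were chosen with earlier results of these data known. Peaks were assigned by midpoint and positions are printed 1-based. Windows were tiled from the first peak midpoint of each chromosome to the last, since chromosome lengths were not used. They were laid without regard to genes, and the Cdx regions were not left out. Intervals are at 95%, exact Poisson for counts and Wilson for shares, and are a description only, as peaks are not independent. All peaks in the windows and the first peak outside each end are named. Tiling, merging and distances were tested on simulated data. No test was run, as the list has no value per library. Gene order (GRCm38.p6, names only) and promoters came from RefSeq tables; 2 of the 3 genes matched the promoter table. Python 3.11.15, numpy 2.4.6, scipy 1.17.1 and matplotlib 3.10.9 were used. Alternatives were other window sizes, overlap of 1 bp, merging of peaks less than 500 bp apart, width filters and other tilings.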

Additional observations from a re-analysis of the deposited data

How the results depend on the processing

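The count of 2 at Cdx1 and of 0 at Cdx2 and Cdx4 was the same with 25 kb taken off or 50 kb added at each window end, with any overlap in place of the midpoint, after merging peaks less than 500 bp apart, and without peaks of the smallest width. Given the positions and widths above, none of these alternatives could change a count. The Cdx1 peaks lay at least 45.6 kb inside their window and 21.1 kb apart. The first peaks outside any window were 56.6 kb or more away. The unchanged counts are therefore no separate support. Keeping peaks wider than the list median left 1 at Cdx1 by construction, and 0 at both others. Adding 200 kb to each end, chosen after seeing the data, gave 3, 2 and 1 peaks. The share of windows with at least as many peaks as Cdx1 was 25% among windows that hold a peak. With peaks wider than the median, where the Cdx1 window holds 1 peak and the comparison is therefore with windows of 1 or more, it was 15.9%. The share of empty windows was 73.1% over all chromosomes and 80.8% for wider peaks at the size of Cdx2, and 72.9% and 95.6% at that of Cdx4. These shares were added after seeing the data, since every window holds at least 0 peaks. The width (194.5 bp, median) and spacing at Cdx1 did not change under their alternatives, which could not change them given the same positions. With wider peaks 1 peak was left and no spacing. No paired analysis was possible because libraries are not separated in the list. Leaving out a replicate was not possible for the same reason. The depth, which is unknown, limits what an absent peak shows.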

Other observations

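Both promoters shown held ATGCAAAT, the octamer letters bound by POU-domain factors, once each. It began 147 bases before the start of Cdx2 and 93 bases before that of Cdx4, on the strand of the gene. Of the 32851 promoters in the table, 526 (1.60%) held it on either strand. The octamer was searched after the sequences had been seen, and binding there was not measured in these data.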
